A study of Homo sapiens with 6 samples.

Results

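Messenger RNA of SKOV3, a human cell line established from an ovarian cancer, was sequenced after silencing of KLF5, a zinc finger transcription factor of the Krüppel-like family. The genes described here are the chemokines, interleukins and their receptors, together with CSF1, CSF2, CSF3, LIF, LIFR, TNF and TNFSF10. They were taken by name from the protein-coding genes of the deposited table, where a symbol that begins with CXCL, CCL, CXCR, CCR or IL and continues with a digit was a match. The rule found 103 genes among the 29185 genes of the table, 16074 of which are protein-coding, and 57 of the 103 had enough reads to be tested. The study asked how KLF5 acts in ovarian cancer cells that resist PARP inhibitors, and compared KLF5-silenced SKOV3 cells (sh-KLF5, 3 libraries) with control SKOV3 cells (sh-NC, 3 libraries). The labels give the genotype of the first group as a KLF5 knockdown and of the second as WT, and both as ovarian cancer cells of the ovary. The knockdown sequence was carried by a lentivirus made from the pLKO.1-EGFP-Puro vector, which also encodes a green fluorescent protein and puromycin resistance, and infected cells were kept under puromycin to obtain stable lines. The control libraries are titled SKOV3_NC in the labels, and sh-NC is the name used for them here. The vector carried by the control cells is not given in the sources used here. The labels hold a single sh-KLF5 line, so that loss of KLF5 cannot be told apart from other effects of that construct or of the selection. No label says that the 3 libraries of a group came from separate cultures, and the p-values therefore measure the spread between these libraries, which may be technical.

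Chemokines are small secreted proteins that guide the migration of leukocytes through G protein-coupled receptors named CXCR and CCR, and the CXC chemokines with an ELR motif before the first cysteines (CXCL1, CXCL2, CXCL3, CXCL8) attract neutrophils. Interleukins act through paired receptor chains: cytokines of the IL-6 family (IL6, IL11, LIF) all need the shared chain gp130, which IL6ST encodes, whereas IL-1 family cytokines signal through MYD88 and IRAK proteins to NF-kB. Carcinoma cells are a known source of IL-6, IL-8 (CXCL8), CCL2 and LIF, and NF-kB and AP-1 are classical activators of many of these genes.

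The ELR chemokine genes lie together on chromosome 4 and all 4 were higher in sh-KLF5 cells. Their promoters are shown for that reason. Those of IL32 and IL6, which were higher as well, are shown as examples with a match to the NF-kB consensus. The promoters of IL4R and IL6ST, which also rose and hold a match, are not shown. Nor are those of CCL3, IL20RA, IL33, IL11, IL15RA, IL7R and LIFR, which rose without a match. The 150 bases before each start site are printed 5′ to 3′ on the strand of the gene, from RefSeq on GRCh38.p14. Capitals mark letters that match the NF-kB consensus on either strand (for CXCL8, the run of letters it shares with CXCL1, CXCL2 and CXCL3). The regions are chr4:73869243-73869392 (+ strand) for CXCL1, chr4:74099196-74099345 (- strand) for CXCL2, chr4:74038690-74038839 (- strand) for CXCL3, chr4:73740419-73740568 (+ strand) for CXCL8, chr16:3065253-3065402 (+ strand) for IL32 and chr7:22727050-22727199 (+ strand) for IL6.
CXCL1: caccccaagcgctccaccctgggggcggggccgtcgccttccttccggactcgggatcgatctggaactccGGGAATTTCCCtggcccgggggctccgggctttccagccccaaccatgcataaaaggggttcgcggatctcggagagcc
CXCL2: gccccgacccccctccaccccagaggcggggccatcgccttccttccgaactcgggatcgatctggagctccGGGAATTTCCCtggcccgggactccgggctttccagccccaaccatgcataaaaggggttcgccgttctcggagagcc
CXCL3: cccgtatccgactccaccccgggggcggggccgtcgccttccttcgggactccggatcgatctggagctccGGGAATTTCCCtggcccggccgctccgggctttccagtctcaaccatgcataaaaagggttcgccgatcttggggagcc
CXCL8: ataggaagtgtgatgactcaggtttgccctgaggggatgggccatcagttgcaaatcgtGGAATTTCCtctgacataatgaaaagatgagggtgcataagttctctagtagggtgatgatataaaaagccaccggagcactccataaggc
IL32: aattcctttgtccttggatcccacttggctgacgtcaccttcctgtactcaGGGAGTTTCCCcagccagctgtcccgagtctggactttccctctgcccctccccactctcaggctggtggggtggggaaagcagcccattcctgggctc
IL6: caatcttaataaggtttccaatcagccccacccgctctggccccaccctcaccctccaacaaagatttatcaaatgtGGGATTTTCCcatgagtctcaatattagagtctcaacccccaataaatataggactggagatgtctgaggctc

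Over 300 bases (250 before and 50 after the start), the promoters of CXCL1 and CXCL3 were identical at 82.5% of aligned positions, those of CXCL2 and CXCL3 at 73.8% and those of CXCL1 and CXCL2 at 71.9%. CXCL8 was more distant, with 45.2% to 47.9% identity to the other three. The run CTCCGGGAATTTCCCTGGCCCGG was common to CXCL1, CXCL2 and CXCL3, at -83 to -61 from the start in CXCL1 and CXCL3 and at -82 to -60 in CXCL2, and 4 of 35116 RefSeq promoters held it on either strand. CXCL8 shared GGAATTTCC with these 3 genes, at -91 to -83, and 0.461% of all promoters held these letters. Both runs were found by comparing the genes with each other.

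The NF-kB consensus GGGRNNYYCC (R for A or G, Y for C or T, N for any base) was searched on both strands. The search covered the 81 promoters of these genes that the RefSeq table holds. The consensus matched in 23.5% of the 81, in 31.8% of the 44 that belong to tested genes and in 11.3% of all 35116 promoters. Of the 13 genes called higher (the call is defined with the counts of genes), CCL2, CCL3L1, CSF1, IL13RA2 and LIF have no entry, and among the promoters of the other 8 it matched in 4, which were CXCL1, CXCL2, CXCL3 and IL32, each with overlapping matches on the 2 strands (GGGAATTTCC at -79 to -70 and GGAATTTCCC at -78 to -69 in CXCL1, GGGAGTTTCC at -99 to -90 in IL32). The promoters of CXCL8, CCL3, IL20RA and IL33 held no match to these letters. In CXCL8 the run GGAATTTCC follows a T, where the consensus needs a G. In IL6 the match was GGGATTTTCC at -73 to -64. The AP-1 letters TGANTCA stood in 21.0% of the 81 promoters, in 15.9% of the 44 of tested genes and in 7.71% of all promoters. Of the 8 promoters of genes called higher, 1 held them, that of CXCL8 (TGACTCA at -137 to -131). The promoter of IL11, which was not called, held them as well (TGAGTCA at -96 to -90). Letters of STAT sites were also searched. They matched in 11.1% of the 81, in 18.2% of the 44, in 0 of the 8 and in 7.66% of all promoters. The letters CACCC, which occur in sites of KLF proteins, were found on either strand in 75.3% of the 81 promoters, in 7 of the 8 of genes called higher and in 59.9% of all. A match describes letters in a window of 300 bases and no binding was measured.

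The deposited value of a gene in a library, the normalized count, is the number of reads counted on the gene divided by 1 size factor per library. The 6 libraries held between 15852319 and 17543896 counted reads, with nearly equal medians of 16568449 in sh-NC and 16497998 in sh-KLF5. The silenced gene KLF5 (ENSG00000102554, chromosome 13) had normalized counts of 4371, 4425 and 4494 in sh-NC and of 1745, 1440 and 1436 in sh-KLF5, which left 34.8% of the control mean (log2 fold change -1.53, limma adjusted p = 2.47e-07). Of the ovarian carcinoma markers looked at, ERBB2 (1993 to 1593), PAX8 (352 to 302.8) and EPCAM (120.5 to 117.7, normalized counts from sh-NC to sh-KLF5) did not pass the test, nor did KRT19 at few reads (6.19 to 11.6), while KRT8, KRT18 and MUC16 were present and fell. The summed level of this list was 25100 to 29920 in sh-NC and 11260 to 16120 in sh-KLF5. Among 7 listed leukocyte markers, CD14 was the only gene above 3 reads in every library, PTPRC had 1 read or none in each library, and the summed level of the list was 156.7 to 226.3 in sh-NC and 201.5 to 389.1 in sh-KLF5. CD14 had a mean of 187.1 in sh-NC and 305.1 in sh-KLF5 (limma adjusted p = 0.0725). Fibroblast markers went both ways, since FAP rose while COL1A2 and DCN fell, with summed levels of 630.3 to 1012 and 384 to 883.7. The part of CD14-expressing or fibroblast-like cells in the results was not tested, and in such bulk RNA fewer cells that express a gene and less RNA per cell cannot be told apart.

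Setting the silenced cells against the controls asks which genes lie downstream of KLF5. In SKOV3 cells with silenced KLF5, 12 of 29 tested chemokine and cytokine ligands rose and 1 fell. The ELR chemokines, CCL2, CCL3, CCL3L1, LIF, IL33 and CSF1, and besides these ligands IL32, rose by more than 1 on the log2 scale, with CCL2 the largest at 7.28-fold. Of 26 tested receptors 7 rose and 3 fell, among them IL13RA2 and IL20RA with a rise and CCR1 with a fall beyond 1 on the log2 scale. Groups were compared with limma on log2(normalized count + 1), which makes the changes of scarcely read genes look smaller than they are. Here a gene "rose" or "fell" where its Benjamini-Hochberg adjusted p over all 15803 tested genes was under 0.05, and was "called" where its log2 fold change was also above 1 or below -1. Of the 57 tested genes, 13 were called higher (22.8%, against 1.9% of all tested genes) and 1 was called lower (1.75%, against 3.37%). By the adjusted p alone, 20 rose (35.1%, against 6.04% of all tested genes) and 4 fell (7.02%, against 6.85%), so that the share that fell was close to the background. The groups did not overlap and sh-KLF5 was the higher one for 23 genes (40.4%, against 15.4%) and the lower one for 6 (10.5%, against 15.9%). The median log2 fold change was 0.47 over the 57 genes and -0.0023 over all tested genes.

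Ligands and receptors differed in these counts. Of 52 listed ligands 29 were tested, with 10 called higher, none called lower and a median log2 fold change of 0.61. At an unadjusted p under 0.05 (limma) 1 ligand was lower, and edgeR and DESeq2 called none lower either. Of 45 listed receptors 26 were tested, with 2 called higher, 1 called lower and a median of 0.045. Over all tested genes 1.9% were called higher and 3.37% lower. By the adjusted p alone, 7 receptors rose and 3 fell, where 6.04% and 6.85% of all tested genes did. Whether ligands and receptors differ was not tested. Among the 14 tested chemokine ligands 7 were called higher, with a median of 1.07.

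**Figure D1:**
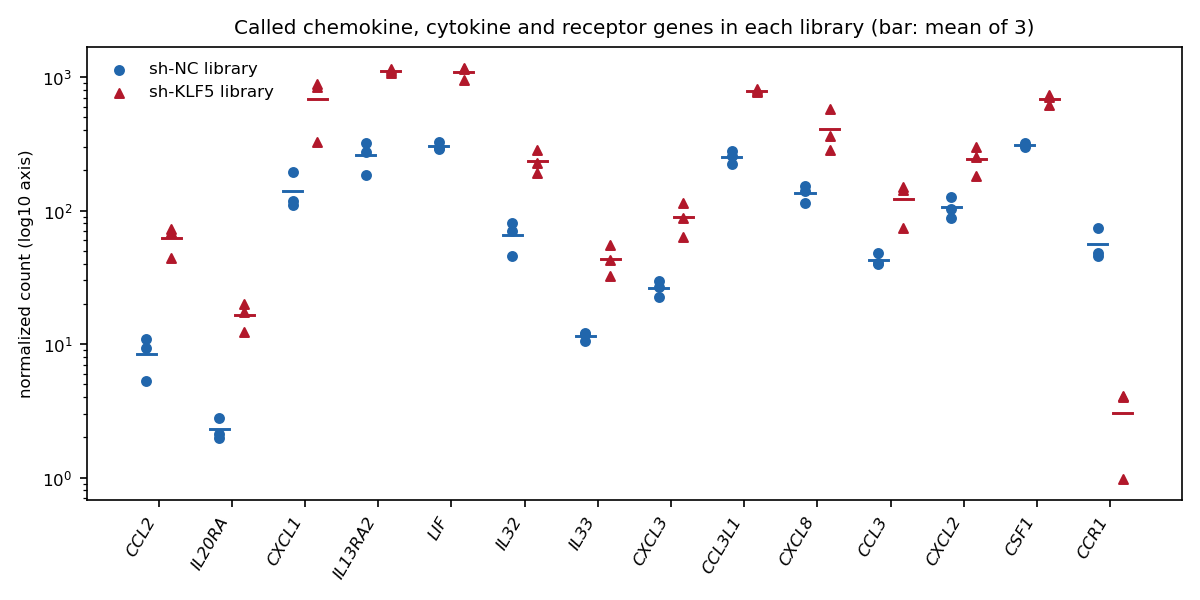
Normalized counts (log10 axis) of the 14 called genes in each of the 3 sh-NC libraries (circles) and 3 sh-KLF5 libraries (triangles), with bars at the group means. In none of these genes do the groups overlap, and CCR1 is the only one with the sh-KLF5 libraries below.

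**Figure D2:**
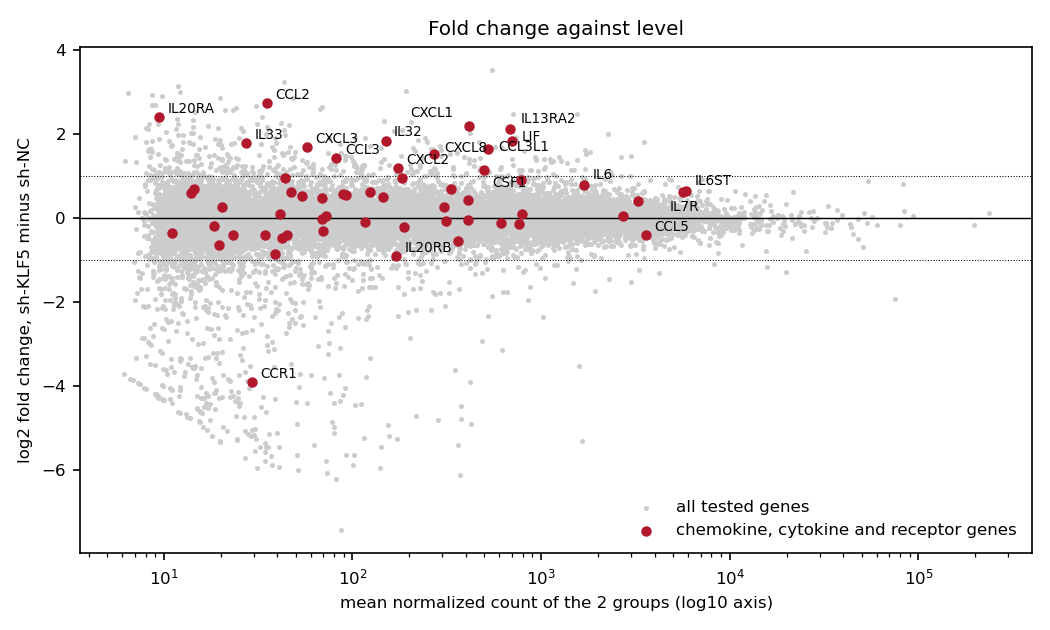
Log2 fold change (sh-KLF5 minus sh-NC) against the mean normalized count of both groups (log10 axis), with all 15803 tested genes in grey and the 57 chemokine, cytokine and receptor genes in red. Dotted lines mark log2 fold changes of -1 and 1, beyond which 13 of the red genes lie above and 1 below.

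The ELR chemokines were measured as follows. CXCL1 (ENSG00000163739, chromosome 4 from 73869393 to 73871242, + strand) had normalized counts of 118.2, 109.4 and 194.2 in sh-NC libraries 1 to 3 and of 888.8, 843.2 and 328.9 in sh-KLF5 libraries 1 to 3. The means were 140.6 ± 46.6 and 686.9 ± 310.9 (SD, n = 3 each), a 4.89-fold rise (log2 fold change 2.20, SE 0.41, limma adjusted p = 0.0116). The groups did not overlap, but sh-KLF5 library 3 was far below the other two. The call depended on single libraries: the adjusted p was 0.102 without sh-NC library 1, 0.0706 without sh-NC library 2, 0.106 without sh-KLF5 library 1 and 3.75e-07 without sh-KLF5 library 3, while the log2 fold change stayed between 1.95 and 2.66.

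CXCL8 (chromosome 4 from 73740506 to 73743716, + strand), the gene of interleukin-8, had 113.6, 140.9 and 153.9 normalized counts in sh-NC and 573.8, 361.9 and 284.8 in sh-KLF5 (log2 fold change 1.52, SE 0.22, limma adjusted p = 1.47e-04). CXCL3 (chromosome 4 from 74036589 to 74038807, - strand) had 22.4, 29.6 and 26.5 in sh-NC and 88.7, 114.5 and 63.2 in sh-KLF5 (1.69, SE 0.28, adjusted p = 5.14e-04). CXCL2 (chromosome 4 from 74097035 to 74099293, - strand) had 126.6, 87.7 and 102.9 in sh-NC and 299.7, 250.3 and 181.5 in sh-KLF5 (1.18, SE 0.21, adjusted p = 9.11e-04). In all 4 ELR chemokines sh-KLF5 library 3 was the lowest of its group and still above every sh-NC library. CXCL5 and CXCL6 were not analysed here.

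On the side of CXCL2, the nearest tested neighbours on chromosome 4 either did not pass the test or fell. The side beyond CXCL8 was not looked at. MTHFD2L, which begins next to CXCL2, had a log2 fold change of 0.011 (limma adjusted p = 0.979), and the EGF-like ligand genes EPGN (0.22, adjusted p = 0.335) and EREG (0.30, adjusted p = 0.171) did not pass the test either. The sh-KLF5 libraries of EREG were nevertheless all above the controls. AREG, which encodes amphiregulin, fell (-0.92, adjusted p = 1.51e-04). Beyond these, G3BP2 fell (-0.40, adjusted p = 0.0444) and USO1 rose (0.44, adjusted p = 0.0338). Farther along, the CXCR3 ligands CXCL10 and CXCL11, which attract activated T cells and are induced by interferons, had log2 fold changes of 0.61 (SE 0.25, adjusted p = 0.135) and 0.95 (SE 0.34, adjusted p = 0.0818). CXCL11 was 30.7, 34.5 and 21.2 in sh-NC and 79.5, 66.9 and 32.1 in sh-KLF5, where library 3 lay within the range of the controls, and DESeq2 on the recovered reads called it higher. CXCL16, a membrane-bound chemokine, was separated between the groups (364, 311.4 and 363.9 against 536.1, 483.2 and 391) with a log2 fold change of 0.43 (adjusted p = 0.066, and 0.0237 without sh-KLF5 library 3). CXCL12 and CX3CL1 were not analysed here.

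The CC chemokines on chromosome 17 moved in both directions. CCL2 (ENSG00000108691, 34255218 to 34257203, + strand), a chemoattractant of monocytes, had 9.31, 10.8 and 5.31 normalized counts in sh-NC and 72.4, 68.9 and 44.1 in sh-KLF5. The means were 8.48 ± 2.86 and 61.8 ± 15.4 (SD, n = 3 each), with a log2 fold change of 2.74 (SE 0.37, limma adjusted p = 8.56e-05), the largest among the 57 genes. Every sh-KLF5 library was above every control library.

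CCL5 (ENSG00000271503, 35871491 to 35880793, - strand), which attracts T cells and monocytes, was the most abundant of these genes per length, with means of 2690 normalized counts per kilobase of exon in sh-NC and 2040 in sh-KLF5. It had 3857, 3888 and 4456 normalized counts in sh-NC and 3078, 3403 and 2772 in sh-KLF5. It was the only ligand that fell (log2 fold change -0.40, SE 0.12, limma adjusted p = 0.0351), and the groups did not overlap. The adjusted p was above 0.05 in 4 of 6 fits with 1 library left out, with 0.0927, 0.108 and 0.161 without sh-NC libraries 1, 2 and 3 and 0.108 without sh-KLF5 library 3.

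CCL3 and CCL3L1, which encode nearly identical ligands of CCR1, are close copies of each other, and reads could have been split between them by the counting. CCL3L1 (36194869 to 36196758, - strand) had 256, 222.7 and 278 in sh-NC and 773.6, 816 and 784.1 in sh-KLF5 (log2 fold change 1.65, SE 0.13, limma adjusted p = 3.88e-07). CCL3 (36088256 to 36090169, - strand) had 40, 40.4 and 47.8 in sh-NC and 73.4, 141.7 and 150.4 in sh-KLF5 (1.43, SE 0.27, adjusted p = 0.00177). Summed, the pair had means of 295 ± 31.3 and 913 ± 58.4 (SD, n = 3 each) in control and silenced cells, a 3.10-fold difference that does not depend on the split (p = 0.1 in a two-sided exact permutation test, which cannot go lower with 3 libraries in each group). CCL3L1 held 85.5% of the sum in sh-NC and 86.7% in sh-KLF5. In GENCODE release 29, 74.6% of the exonic bases of CCL3 and 23.3% of those of CCL3L1 are overlapped by genes on the opposite strand, and the sources used here do not say that counting used strand. The related pair CCL4 and CCL4L2 differed by 1.35-fold when summed (exact permutation test, two-sided p = 0.3). CCL20, the ligand of CCR6, had 50.3, 39.4 and 28.6 against 32.6, 35.9 and 20.1 (log2 fold change -0.41, limma adjusted p = 0.463).

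All 3 ligands of the IL-6 family with a member here rose. LIF (ENSG00000128342, chromosome 22 from 30240447 to 30246851, - strand), leukemia inhibitory factor, had 327.7, 286.7 and 291.8 in sh-NC and 1150, 1178 and 947.5 in sh-KLF5. The means were 302.1 ± 22.3 and 1092 ± 126 (SD, n = 3 each), a 3.61-fold rise with the smallest adjusted p among the 57 genes (log2 fold change 1.85, SE 0.13, limma adjusted p = 1.20e-07). Antisense genes overlap 6.73% of the exonic bases of LIF. Of these, AC004264.1 had 8 to 13 reads per library in sh-NC and 20 to 39 in sh-KLF5, and LIF-AS1 had at most 3 in any library. IL11, which acts on stromal and haematopoietic cells, had 466.5, 527.2 and 638.8 in sh-NC and 1083, 1109 and 871.3 in sh-KLF5 (0.91, SE 0.14, adjusted p = 3.27e-04). IL6 (ENSG00000136244, chromosome 7) had 1324, 1127 and 1192 in sh-NC and 2773, 2235 and 1467 in sh-KLF5 (0.78, SE 0.18, adjusted p = 0.00727). Genes on the opposite strand (AC073072.1 and STEAP1B) overlap 20.7% of the exonic bases of IL6, and each had at most 12 reads in any library. Both groups were separated in LIF, IL11 and IL6, and in each of these sh-KLF5 library 3 was the lowest of its group.

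IL33 was the only IL-1 family gene called. IL33 (chromosome 9 from 6215786 to 6257983, + strand), a nuclear cytokine released from damaged cells, had 12.1, 11.8 and 10.6 normalized counts in sh-NC and 55, 42.7 and 32.1 in sh-KLF5 (log2 fold change 1.79, SE 0.34, limma adjusted p = 0.002). IL18 had 443.2, 337 and 442.5 in sh-NC and 579.9, 341.5 and 304.8 in sh-KLF5 (-0.043, adjusted p = 0.926), with a wide spread in sh-KLF5. The classical IL-1 cytokines were scarce, with means of 12.9 and 9.28 for IL1A (adjusted p = 0.711) and of 19.9 and 16.9 for IL1B (adjusted p = 0.787), and their intervals allow log2 differences from -1.44 to 0.73 and from -0.98 to 0.59 (95%).

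IL32 and CSF1 completed the called ligand-side genes. IL32 (ENSG00000008517, chromosome 16 from 3065297 to 3082192, + strand), an intracellular and secreted protein without a known family, had 70.8, 45.3 and 80.6 in sh-NC and 227.3, 192.1 and 283.8 in sh-KLF5 (log2 fold change 1.84, SE 0.23, limma adjusted p = 3.99e-05). CSF1 (ENSG00000184371, chromosome 1 from 109910242 to 109930992, + strand), the growth factor of macrophages, had 298.9, 320.2 and 312 in sh-NC and 620.7, 705.4 and 733.9 in sh-KLF5 (1.14, SE 0.13, adjusted p = 1.34e-05). Neither gene had overlapping groups. Its receptor CSF1R had at most 8 reads in any library. CSF3, the growth factor of neutrophils, was not tested, with 3, 1 and 2 reads in sh-NC and 17, 17 and 3 in sh-KLF5 (6.197-fold in summed reads, 95% counting interval 2.59 to 17.96). CSF2, the growth factor of granulocytes and macrophages, had no read in sh-NC and exactly 2 in each library of sh-KLF5, so that no library exceeded the 3 reads that a count of 0 allows, although the counting interval of the ratio of summed reads began at 1.18. TNF had at most 2 reads in any library, with a counting interval of the ratio up to 4.46. TNFSF10, the death ligand TRAIL, had 129.4, 133 and 88.1 in sh-NC and 158, 132 and 60.2 in sh-KLF5 (-0.089, SE 0.30, adjusted p = 0.889).

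**Figure D3:**
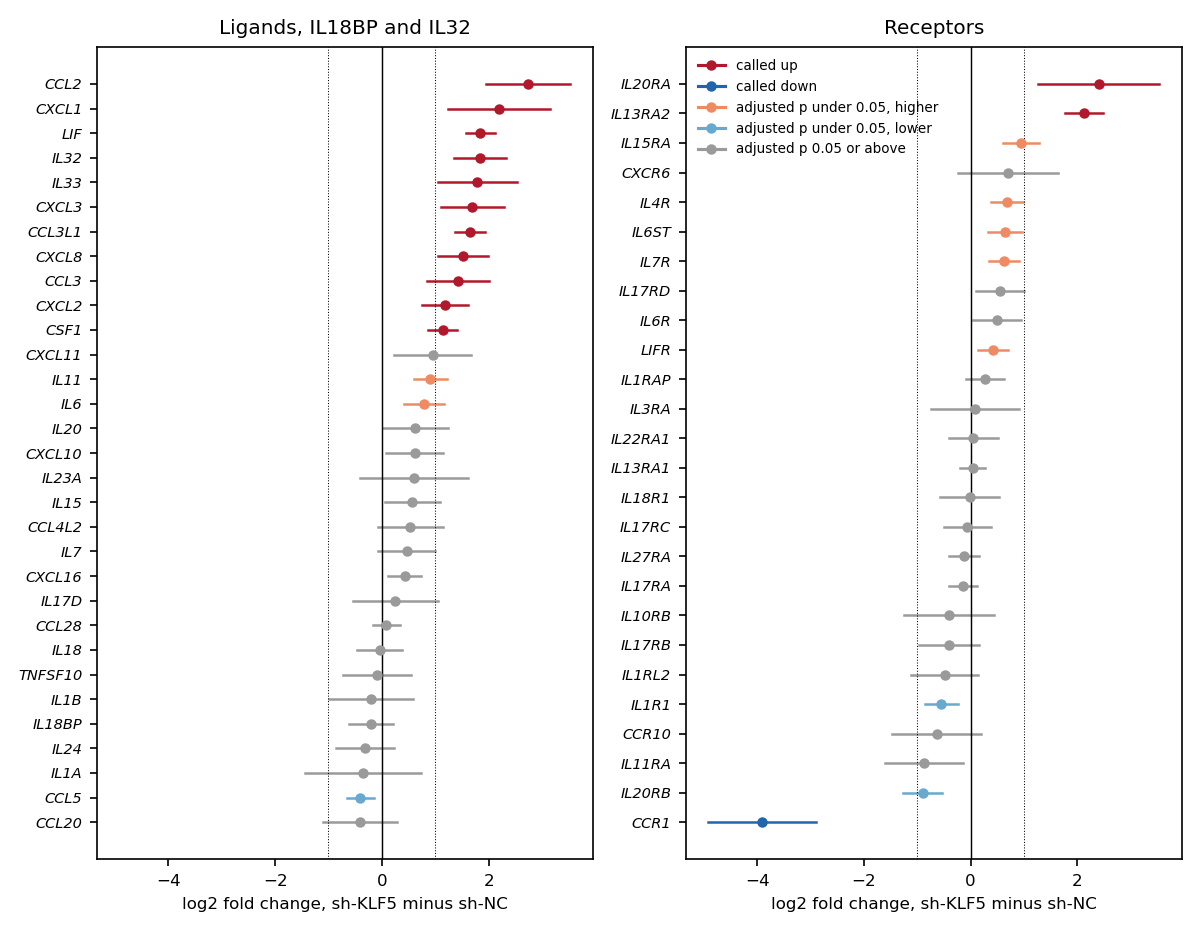
Log2 fold change (sh-KLF5 minus sh-NC, points) with its 95% confidence interval from limma (lines) for the 29 tested ligands with IL18BP and IL32 on the left and the 26 tested receptors on the right. Most ligands lie to the right of 0 while receptors lie on both sides, and CCR1 lies farthest to the left at -3.91.

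Most chemokine receptor genes had few reads, and 3 of the 9 listed CCR and CXCR genes were tested. CCR1 (ENSG00000163823, chromosome 3 from 46201709 to 46208396, - strand), a receptor of CCL3 and CCL5, had 74.5, 45.3 and 47.8 normalized counts in sh-NC and 4.08, 0.97 and 4.01 in sh-KLF5, the last group holding 4, 1 and 4 reads. In summed reads it was 18.9-fold lower (95% counting interval 9.73 to 42.05), and the fitted log2 fold change was -3.91 (SE 0.47, limma adjusted p = 3.06e-05). It was the largest change of either direction among the 57 genes and the only one called lower. CCR10 (means 24.7 and 14.6, adjusted p = 0.335) and CXCR6 (10.5 and 18.4, adjusted p = 0.35) did not pass the test, and CXCR4 was not analysed here.

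Of the 5 tested receptor genes of the IL-6 family, 2 rose and none fell by limma, edgeR or DESeq2, and 1 was lower at an unadjusted p under 0.05. IL6ST, the gp130 chain, had 4977, 4620 and 3969 in sh-NC and 9053, 5988 and 6475 in sh-KLF5 (log2 fold change 0.65, SE 0.15, limma adjusted p = 0.00741). LIFR, the partner of gp130 for LIF, had 3002, 2931 and 2438 in sh-NC and 4277, 3196 and 3713 in sh-KLF5 (0.41, SE 0.13, adjusted p = 0.048). Both were separated between the groups. The adjusted p of LIFR was above 0.05 without any single sh-NC library (0.0879, 0.119 and 0.219) or sh-KLF5 library 3 (0.0798), as well as with a pseudocount of 0.1 (0.0504) or when every library needed 10 reads (0.0521), and that of IL6ST was above it without sh-NC library 3 (0.0708). IL6R, which binds IL-6 itself, overlapped between the groups (138.7, 126.1 and 94.4 against 132.5, 161.1 and 218.6, adjusted p = 0.15, and 0.0284 without sh-KLF5 library 1), and IL11RA, which binds IL-11, was 48.4, 46.3 and 53 against 14.3, 36.9 and 35.1 (-0.87, SE 0.34, adjusted p = 0.117). Per kilobase, gp130 stood at 486.7 in sh-NC and 771.8 in sh-KLF5, against 18.6 and 26.5 for IL6R and 11.5 and 6.73 for IL11RA.

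Receptors of the IL-4, IL-7, IL-13 and IL-15 group gave 1 call among 6 tested genes, and none fell by limma, edgeR or DESeq2 (0 lower at an unadjusted p under 0.05). IL13RA2 (ENSG00000123496, chromosome X from 115003975 to 115019977, - strand), a high-affinity IL-13 receptor known mainly as a decoy, had 186.2, 276.9 and 319.4 in sh-NC and 1150, 1081 and 1104 in sh-KLF5. The means were 260.8 ± 68 and 1112 ± 35 (SD, n = 3 each), a 4.26-fold rise (log2 fold change 2.12, SE 0.17, limma adjusted p = 3.46e-07). IL13RA1, the signalling IL-13 receptor chain, had means of 2693 and 2768 (0.038, adjusted p = 0.869, 95% interval -0.19 to 0.27), and its groups overlapped. Per kilobase, IL13RA2 stood at 160.4 and IL13RA1 at 616 in sh-NC, and at 683.6 and 633.2 in sh-KLF5.

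Of the other genes of this group, 3 rose by less, and IL3RA, the IL-3 receptor chain, had means of 41.7 and 41 (log2 fold change 0.086, limma adjusted p = 0.923). IL15RA, which presents IL-15 to neighbouring cells, had 140.6, 119.2 and 117.8 in sh-NC and 246.7, 244.5 and 234.6 in sh-KLF5 (log2 fold change 0.94, SE 0.16, limma adjusted p = 7.61e-04). IL4R, the chain shared by the IL-4 and IL-13 receptors, had 246.7, 240.4 and 281.2 in sh-NC and 374.1, 441.5 and 422.1 in sh-KLF5 (0.69, SE 0.14, adjusted p = 0.00317). IL7R, known best from lymphocytes, had 4887, 4162 and 4173 in sh-NC and 6491, 5980 and 8024 in sh-KLF5 (0.63, SE 0.13, adjusted p = 0.00343). The groups were separated for IL15RA, IL4R and IL7R, and IL7R was second to CCL5 in level per kilobase (727.3 in sh-NC and 1127 in sh-KLF5), although the common gamma chain gene IL2RG, its usual partner, had at most 5 reads in any library.

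The IL-20 receptor chains moved in opposite directions. IL20RA (ENSG00000016402, chromosome 6 from 136999971 to 137045180, - strand) had 2.79, 1.97 and 2.12 normalized counts (3, 2 and 2 reads) in sh-NC and 12.2, 17.5 and 20.1 in sh-KLF5. In summed reads it was 7.18-fold higher (95% counting interval 3.24 to 18.8; fitted log2 fold change 2.40, SE 0.54, limma adjusted p = 0.00634). IL20RB (chromosome 3 from 136946230 to 137011085, + strand), which pairs with it, had 189.9, 242.4 and 237.7 in sh-NC and 129.4, 117.4 and 109.3 in sh-KLF5 (-0.90, SE 0.17, adjusted p = 0.0019). Even in sh-KLF5 the level per kilobase was 3.51 for IL20RA and 48 for IL20RB. Of the ligands of this receptor, IL20 and IL24 did not pass the test, with log2 fold changes of 0.62 (adjusted p = 0.178) and -0.32 (adjusted p = 0.469). IL19 was not tested, with 3 reads in sh-KLF5 library 3 and none in any other library.

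Among the IL-1 family receptors, IL1R1, the signalling receptor of IL-1, fell from 473, 417.8 and 401.1 in sh-NC to 341.4, 287.2 and 256.7 in sh-KLF5 (log2 fold change -0.55, SE 0.15, limma adjusted p = 0.0193), with no overlap between the groups. The adjusted p was 0.118 and 0.0712 without sh-NC library 1 or 2, and 0.0624 and 0.0714 without sh-KLF5 library 2 or 3. Its partner chain IL1RAP had 259.8, 312.4 and 253.6 against 406.7, 272.7 and 324.9 (0.27, SE 0.16, adjusted p = 0.33). None of the 4 tested IL-17 receptor genes passed the test in limma, edgeR or DESeq2 (1 higher and 0 lower at an unadjusted p under 0.05), and their log2 fold changes ran from -0.40 to 0.55.

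The 46 genes that were not tested had at most 17 reads in any library, and 21 of them had 3 reads or fewer in each library. No read was counted in any sh-NC library for 7 of them and in any sh-KLF5 library for 6. IL21R, a receptor chain of lymphocytes, was among the latter, with 3, 4 and 5 reads in sh-NC. CCL24, an attractant of eosinophils, had 0, 2 and 0 reads in sh-NC and 2, 7 and 10 in sh-KLF5 (9.55-fold in summed reads, 95% counting interval 2.303 to 84.5). Both were chosen after their values were seen.

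Of 80 genes in lists of the signalling steps and neighbouring receptors of the same pathways, 75 were in the table and 64 were tested, with 3 called higher and 4 called lower (1.9% and 3.37% of all tested genes were called) and a median log2 fold change of 0.069. Of 19 NF-kB pathway genes, all tested, none was called by limma and the median was 0.066, while 6 were higher and 0 lower at an unadjusted p under 0.05. On the recovered reads edgeR and DESeq2 each called 1 of them higher, and none lower. By the adjusted p alone 4 of them rose (6.04% of all tested genes did), which were TNFAIP3 (0.99, limma adjusted p = 1.33e-04) and the genes NFKBIZ, RELB and BCL3 with log2 fold changes of 0.58 to 0.76. TNFAIP3, a feedback inhibitor and target of NF-kB, had 534.4, 499.6 and 536.9 normalized counts in sh-NC and 1025, 1277 and 864.3 in sh-KLF5. NFKBIA, the classical inhibitor and target, had a log2 fold change of 0.009 (adjusted p = 0.979).

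In the steps below the IL-1 receptor, IRAK2, a kinase-like adaptor, was called higher (135, 121.2 and 147.5 against 305.8, 326 and 233.6, log2 fold change 1.08, limma adjusted p = 3.99e-04). SIGIRR, an inhibitor of IL-1 signalling, was called lower with few reads (14.9, 23.6 and 30.8 against 5.1, 7.76 and 8.02, -1.56, adjusted p = 0.0288). In the JAK-STAT list, SOCS1, a feedback inhibitor, was called higher (40, 41.4 and 28.6 against 101.9, 72.8 and 87.2, 1.23, adjusted p = 0.00318). STAT4 was called higher at low counts (6.52, 2.96 and 4.24 against 13.3, 14.6 and 24.1, 1.72, adjusted p = 0.0339), and JAK3, the kinase partner of the common gamma chain, was called lower (17.7, 28.6 and 22.3 against 3.06, 0 and 2, -3.35, adjusted p = 0.00147). The sh-KLF5 libraries held 3, 0 and 2 reads of JAK3, so that its fitted fold change depends on the added 1. The call of SIGIRR was lost without sh-NC library 2 or 3 or sh-KLF5 library 2 (adjusted p up to 0.144), that of STAT4 without any of these or sh-KLF5 library 3 (up to 0.134), and the fold of IRAK2 became 0.99 without sh-KLF5 library 2.

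STAT3, the main transcription factor below gp130, fell from 2805, 2649 and 2765 to 1838, 1896 and 1901 (log2 fold change -0.54, limma adjusted p = 0.00226), and its feedback inhibitor SOCS3 did not pass the test (0.31, adjusted p = 0.187). SOCS2 fell (-0.96, adjusted p = 1.88e-04) and STAT5B rose (0.65, adjusted p = 0.00118). Of the gp130 family without an IL name, OSMR, the oncostatin M receptor, rose from a mean of 9692 to 14430 (0.57, adjusted p = 0.00189), whereas the ligand CLCF1 fell (-0.48, adjusted p = 0.0134). ACKR3, an atypical receptor that takes up CXCL11 and CXCL12, was called lower (117.3, 115.3 and 125.2 against 53, 37.8 and 48.1, -1.36, adjusted p = 4.49e-04). The TRAIL receptor genes TNFRSF10B and TNFRSF10D rose (0.70 and 0.84, adjusted p = 4.81e-04 and 0.00105), as did TNFRSF11B (0.70, adjusted p = 0.0383). With 1 library left out, the adjusted p was above 0.05 for TNFRSF11B in 5 of 6 fits (up to 0.14, all but that without sh-KLF5 library 3, and 0.0518 when scaled by library size only), for RELB in 3 (without sh-NC library 1 or 2 or sh-KLF5 library 2, up to 0.0661), for CLCF1 in 2 (without sh-NC library 1 or 2, up to 0.0717) and for BCL3 in 1 (without sh-NC library 2, 0.0557).

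**Figure D4:**
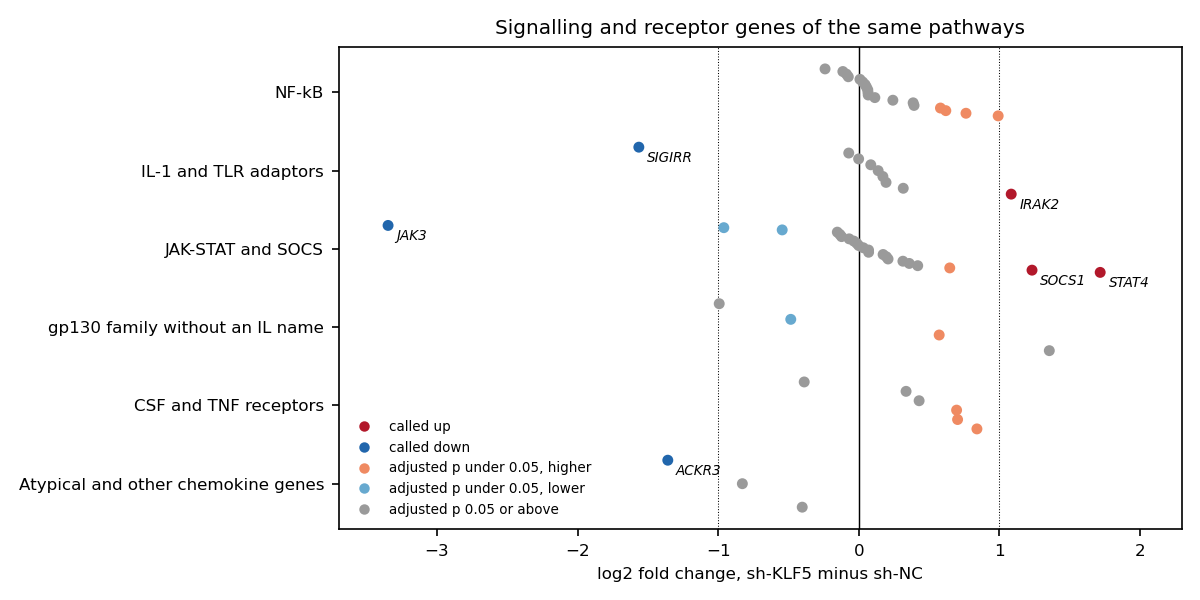
Log2 fold change (sh-KLF5 minus sh-NC) of tested genes of the same pathways, 1 point per gene, in 6 lists from NF-kB to atypical chemokine genes, coloured by the outcome of the limma test. The 19 NF-kB genes lie between -0.24 and 0.99, and the called genes shown carry their names.

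Libraries did not contribute equally to these results. Among the 13 genes called higher, sh-KLF5 library 3 was the lowest of its group in 7 and lay at a median of -0.20 (log2) from the group mean, and without it 16 genes were called higher, with IL6, IL11 and CXCL11 added. All 14 calls except that of CXCL1 held under each alternative that tested the gene.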

How the data were processed

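Messenger RNA from KLF5-silenced (sh-KLF5, 3 libraries) and control (sh-NC, 3 libraries) SKOV3 cells was compared by RNA-seq, with groups and replicates taken from the sample labels. The table that the authors deposited lists 29185 genes and gives each a normalized signal in every library (reads on a gene divided by 1 size factor per library) and the gene length. The same deposited table holds the authors' own comparison (group means, log2 fold change, p-values), which was not used. The submitters' processing notes name HISAT2 2.0.5, featureCounts 1.5.0-p3, DESeq2 1.20.0 and build hg38. The strand setting is not given in the sources used here, so reads of overlapping genes cannot be told apart.

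From the deposited signal, reads were recovered by taking the lowest nonzero value in a library as 1 read, after which 100% of all values were whole (within 0.001 read). Totals were 15852319 to 17543896 reads. Intervals on reads are exact and cover counting error only, as does the limit of 3 reads for a count of 0. Library pairs of a group differed by more than sampling noise, and all were kept as separate libraries. The chi-square per degree of freedom was 4.37 to 8.53 in sh-NC and 10.6 to 31 in sh-KLF5. In sh-KLF5 it was largest for the pairs with library 1 (23.9 with library 2 and 31 with library 3).

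Genes passing edgeR's filterByExpr (minimum count 10, 15803 genes) were tested on log2(normalized count + 1) in limma 3.58.1 (R 4.3.3) using its trended and robust empirical Bayes options, with Benjamini-Hochberg adjustment over all of them. Calls needed an adjusted p under 0.05 together with a log2 fold change beyond 1 or -1. On the recovered reads, edgeR 4.0.16 called 13 members higher and 1 lower, and DESeq2 1.42.0 called 14 and 1. The steps were tested on simulated data. Other alternatives were the scaling, pseudocount, filter, replicate number as a block and leaving out each library. Deviations of same-numbered libraries correlated weakly (0.059, 0.0331 and 0.0504, against -0.0572 to -0.00114 between libraries of different number). The numbers were therefore not used as pairs in the main test, although these values do not exclude a weak pairing.

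The members and lists were chosen with earlier results of these data known. Named are KLF5, members with an adjusted p under 0.05, the 10 most abundant per kilobase, a list of classical cytokine genes whether or not they moved, and called related genes, not all of which are reported here; neighbours, partners and overlapping genes were added. Exon overlaps come from GENCODE release 29 on GRCh38, which held all 29185 genes at the listed coordinates, and promoters from RefSeq (GRCh38.p14). Figures were drawn with matplotlib 3.10.9.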

Additional observations from a re-analysis of the deposited data

How the results depend on the processing

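The number of genes called higher was 13, and 11 to 16 over all alternatives, with 12 to 16 when 1 library was left out. The single call lower (CCR1) became 2 without a filter on low counts, where IL21R was added, and 0 when every library needed 10 reads, a limit that CCR1, CCL2 and IL20RA do not pass. Leaving out 1 library gave 1 to 2 calls lower, with IL20RB added without sh-NC library 1, and 2 to 4 genes that fell by the adjusted p. Among the related genes, leaving out 1 library gave 1 to 4 calls higher, and the limit of 10 reads left 2 calls lower of 4. The sign of genes near 0 was not stable: with 1 library left out, the log2 fold change ran from -0.0106 to 0.085 for IL13RA1, from -0.32 to 0.14 for IL18 and from -0.36 to 0.33 for TNFSF10, and edgeR gave 0.00249 for IL18. Over 41 named genes, 360 values under other settings kept their direction and their call or lack of one (adjusted p and fold), 1 lost its call and 1 reversed, while with 1 library left out 223 kept both, 11 lost a call, 5 gained one and 7 reversed. By the adjusted p alone, 356 values under other settings kept their side of 0.05, 3 lost it and 2 gained it, and with 1 library left out 214 kept it, 23 lost it and 2 gained it. The cause of these changes was not tested. Scaling by TMM or by library size moved the median of all genes to -0.004 and 0.0048.

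With the replicate number as a replicate block, 12 genes were called higher and 1 lower, 22 rose and 4 fell by the adjusted p, KLF5 stayed at -1.53, and only the call of CXCL1 was lost among members (adjusted p = 0.211, over all alternatives the highest for this gene), while CXCL10 and CXCL16 came under an adjusted p of 0.05 (0.0347 and 0.0357). Every library correlated best with its own number, at values up to 0.059 only. Genes with few reads, such as IL20RA and CCR1, are limited by counting error as their intervals show.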
